A study of Mus musculus with 2 samples.

Results

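Cxcl9-positive C1q macrophages are the cells from the tumours of this series that carry the complement C1q transcripts of tissue macrophages together with transcripts of Cxcl9, a chemokine for activated T cells. The cells were chosen by measured transcript counts. A cell had a mitochondrial share of its transcripts under 20%, at most 1 transcript of Hmga2 (a gene of the CT26 tumour cells), at least 2000 CPM (counts per 1000000 UMIs) of C1qa, C1qb and C1qc summed, at least 1 transcript of Csf1r or Ptprc, none of Cd3d, Cd3e, Cd3g or Xcr1, and at least 1 of Cxcl9. Transcripts were counted by unique molecular identifiers (UMIs), each of which marks 1 captured mRNA molecule. By this rule 528 of 26063 barcodes were members, 60 in the control library and 468 in the antibody library. A further 907 cells passed the same gate with no Cxcl9 UMI, 670 of them control and 237 antibody cells, and served as the comparison. Because C1q and Cxcl9 made the gate, their levels in the members are a description and not a finding.

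The series holds 2 single-cell RNA-seq libraries from mouse tumours grown from CT26, a colon carcinoma cell line. The control library came from mice given anti-IgG at 10 mg/kg every 2 days, and the library called SLC7A11-Ab came from mice given an antibody against SLC7A11 at the same dose and interval. Dosing began once tumours measured 50 to 100 mm3. SLC7A11 is a membrane transporter that takes up cystine in exchange for glutamate. The labels describe injection of the cells at the cecal junction and elsewhere mention a subcutaneous tumour, which leaves its site unclear. Strain, age, sex, genotype and the number of mice behind each library are not stated in the labels. Tissue was digested with collagenase IV and DNase I, and no sort was described. With 1 library in each group there is no replicate check, and no p-value was computed. Intervals are 95% intervals that cover counting error only, so a difference between the libraries cannot be told apart from a difference between mice, dissociations or library preparations.

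C1q macrophages are tissue macrophages that make the subunits of the first complement component, and in tumours they often carry scavenger receptors and antigen-presentation genes. Cxcl9, Cxcl10 and Cxcl11 are ligands of CXCR3, a receptor on activated T cells and NK cells. Interferon gamma, released by those cells, acts through the Ifngr1/Ifngr2 receptor and the kinases Jak1 and Jak2 to switch on these ligands, guanylate-binding proteins, immunity-related GTPases and the class II transactivator Ciita, which in turn drives MHC class II.

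Totals were 129044329 UMIs over 13910 barcodes for the control and 143658800 UMIs over 12153 barcodes for the antibody. The libraries shared 39 barcode sequences, and none of those lay in the macrophage gate of both. The labels give the cell type as goblet cells, but goblet cell markers were nearly absent from all barcodes: Tff3 had 0 and 2 UMIs and Muc2 6 and 6 in the control and antibody libraries. Several genes differed between the libraries by a similar amount in cells of different types. Cox5a, a subunit of cytochrome c oxidase, was higher in the antibody library by 5.26 (log2) in the Cxcl9-positive cells, 5.13 in the Cxcl9 = 0 cells, 5.49 in a gate of tumour cells and 4.40 in a gate of T cells, with too few UMIs for a ratio in neutrophils. The ferritin heavy chain gene Fth1 was higher by 4.04 in the Cxcl9-positive cells, 4.18 in the Cxcl9 = 0 cells and a median of 3.91 over the tumour cell, T cell and neutrophil gates. For this reason most ratios between the libraries below are set beside the same ratio in the Cxcl9 = 0 cells and in the other gates, where a single value is the median over those of the 3 gates with enough UMIs. What the library-wide differences contribute to it was not tested.

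The members carried macrophage transcripts. All 7 macrophage markers (Csf1r, Adgre1, Cd68, Mertk, Fcgr1, Aif1, Ms4a7) had UMIs in all 4 cell sets, and their summed level was 4286 CPM in control members, 4515 CPM in control Cxcl9 = 0 cells, 4660 CPM in antibody members and 3536 CPM in antibody Cxcl9 = 0 cells. Markers of several other cell types were low. T cell markers summed to 11.5 CPM in the control members (2 of 10 detected) and 14.1 CPM in the antibody members (7 of 10), with Cd3d, Cd3e and Cd3g at 0 by the rule. B and plasma cell markers summed to 8.59 and 18.7 CPM. Neutrophil markers summed to 28.6 and 116 CPM with Ly6g at 0, against 110 and 309 CPM in the Cxcl9 = 0 cells. NK cell markers summed to 94.5 and 90.1 CPM, against 74.4 and 140 CPM in the Cxcl9 = 0 cells. Tumour cell markers summed to 31.5 and 29.4 CPM, against 951 and 713 CPM in the tumour gate. Other lists were not low. Markers of cDC1, the cross-presenting dendritic cells, summed to 189 and 438 CPM with Xcr1 at 0 by the rule. They summed to 189 and 361 CPM in the Cxcl9 = 0 cells and to 81.4 and 111 CPM in the tumour gate. Clec9a of this list had UMIs in the members of both libraries and none in the Cxcl9 = 0 cells. The Xcr1 rule cut the gate from 734 to 730 control and from 793 to 705 antibody cells. Markers of cDC2 and mature dendritic cells summed to 215 and 301 CPM. Markers of plasmacytoid dendritic cells summed to 1941 and 1797 CPM (1665 and 1712 CPM in the Cxcl9 = 0 cells) with Siglech, a defining marker, at 0, and most of the sum came from Bst2 at 1543 and 1166 CPM. Monocyte markers summed to 504 and 850 CPM, and to 531 and 1047 CPM in the Cxcl9 = 0 cells. Fibroblast markers summed to 1492 CPM in the control members, against 107 CPM in the control Cxcl9 = 0 cells and 99.5 CPM in the antibody members, and 494 of those 521 control UMIs came from 1 cell, described below with the collagen genes. The part of these transcripts in the results below was not tested beyond leaving out that cell. Barcodes with the highest doublet scores were marked, in a share fixed by the barcode count of the library. They included 3 of the 60 control and 16 of the 468 antibody members.

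Cxcl9-positive cells made up 60 of 730 gated cells in the control library, 8.22% (exact interval 6.33 to 10.5), and 468 of 705 in the antibody library, 66.4% (62.8 to 69.9). The share was 8.08-fold higher in the antibody library, a log2 ratio of 3.01 (2.59 to 3.46). The members were also richer in the transcript there. The median member carried 1 Cxcl9 UMI in the control library and 9 in the antibody library, and the highest 26 and 75. Cells with exactly 1 Cxcl9 UMI were 32 of the 60 control members (53.3%) and 64 of the 468 antibody members (13.7%), while 3 (5%) and 221 (47.2%) had 10 or more. Summed over the members, Cxcl9 stood at 492 CPM (422 to 572) in the control and 2005 CPM (1956 to 2054) in the antibody library. Over the whole gate it stood at 54.3 CPM (46.4 to 63.0) and 1545 CPM (1507 to 1582).

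Depth and free RNA bear on these shares. The members were deeper than the cells without Cxcl9, with a median of 4883 against 3770 UMIs in the control and 6709 against 3458 in the antibody library. With every cell thinned to 2000 UMIs, 33 of 627 control cells (5.26%) and 368 of 606 antibody cells (60.7%) still held a Cxcl9 UMI. Free RNA in a droplet can give a UMI to a cell that does not make the transcript. In tumour cells, set beside the macrophages, 0.438% (30 of 6849, median depth 9383 UMIs) of the control and 13.6% (219 of 1608, median depth 12460 UMIs) of the antibody cells had a Cxcl9 UMI. In T cells the numbers were 0 of 147 (median depth 1539 UMIs, exact interval up to 2.48%) and 30 of 456, or 6.58% (median depth 2355 UMIs). Thinned to 2000 UMIs, the tumour gate gave 0.125% and 3.81%, below the macrophage share of its own library in both. The tumour and T cell shares were themselves higher in the antibody library. Both gates required C1q at 0, so droplets with free macrophage RNA that carried C1q were left out. Their shares can therefore understate free RNA, here and where these gates are set beside other genes below. Of the antibody tumour cells 17 held 10 or more Cxcl9 UMIs, and the highest held 73. Whether tumour cells made Cxcl9 themselves was not tested.

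**Figure D1:**
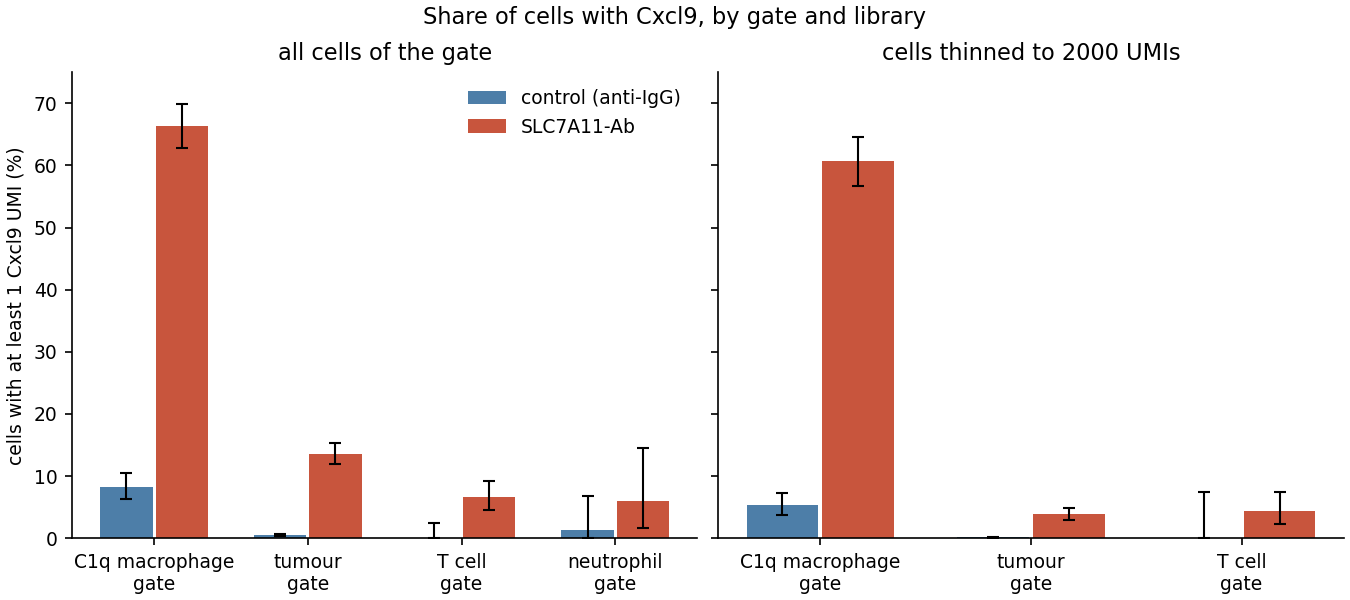
Share of cells with at least 1 Cxcl9 UMI (%) in the C1q macrophage, tumour and T cell gates, for all cells (left) and for cells thinned to 2000 UMIs (right). The neutrophil gate is drawn on the left only. Bars give the share and error bars the exact 95% counting interval. On the left the macrophage gate stands at 8.22% (control) and 66.4% (SLC7A11-Ab). In each panel it lies above the other gates drawn for the same library.

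**Figure D2:**
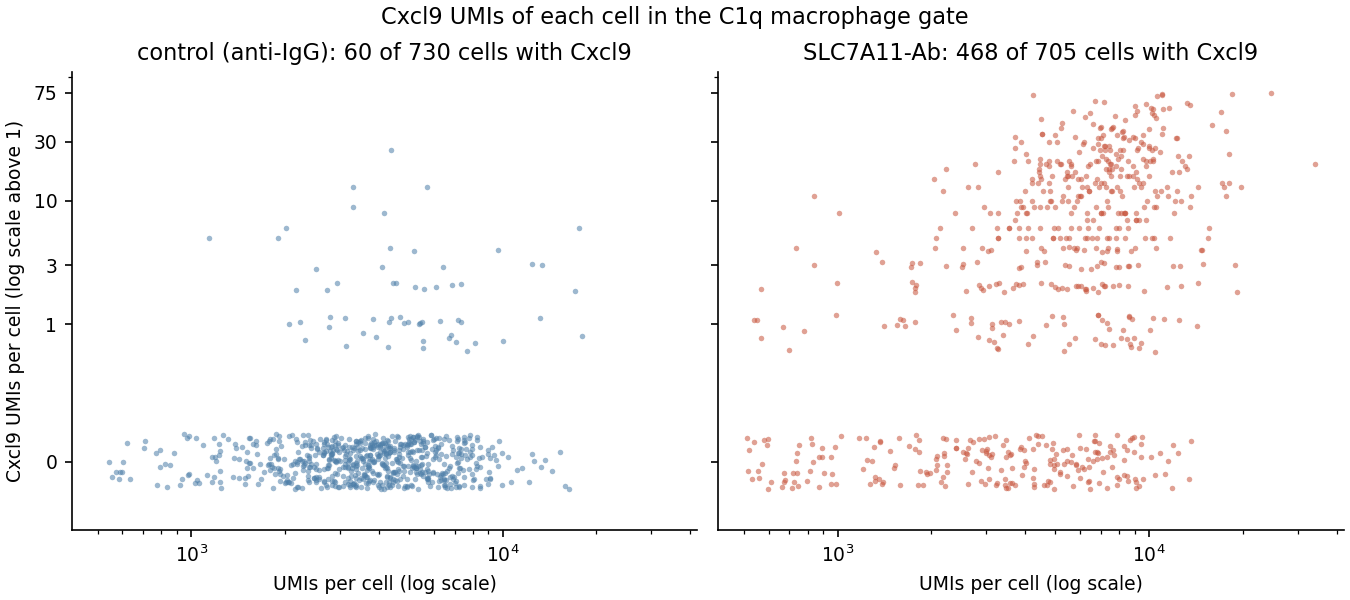
Cxcl9 UMIs of each gated cell against its total UMIs, both on log scales (the Cxcl9 axis is linear below 1, with small vertical jitter below 5). The control cells with Cxcl9 lie mostly at 1 UMI, whereas 221 of the 468 antibody members hold 10 or more.

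Moving the C1q limit would have changed few cells. Just outside it, between 1500 and 2000 CPM of C1q, lay 0 control and 10 antibody cells with Cxcl9, and just inside, between 2000 and 2500 CPM, 0 and 7. The 10 cells outside had H2-Ab1 at 4551 CPM and Mrc1 at 170 CPM, and the 7 inside 7159 and 409 CPM.

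Cxcl9 lies on mouse chromosome 5 at chr5:92321347-92328079 on the minus strand (mm10), next to Cxcl10 at chr5:92346638-92348889 and Cxcl11 at chr5:92359544-92365485. Below are the 250 bases before the start of Cxcl9, of its neighbour Cxcl10, and of Slamf8, a receptor gene on chromosome 1 that was at least 2-fold higher in the members of both libraries. They are shown because Cxcl10 and Slamf8 belong to the list of interferon gamma response genes and stood higher in the members, in the case of Slamf8 not after thinning in the control. Sequences are from RefSeq (GRCm38.p6) at chr5:92328080-92328329, chr5:92348890-92349139 and chr1:172590569-172590818, all on the minus strand and written 5′ to 3′. Capitals mark matches on either strand to GAAANNGAAA, the core of the interferon-stimulated response element bound by interferon regulatory factors.
Cxcl9: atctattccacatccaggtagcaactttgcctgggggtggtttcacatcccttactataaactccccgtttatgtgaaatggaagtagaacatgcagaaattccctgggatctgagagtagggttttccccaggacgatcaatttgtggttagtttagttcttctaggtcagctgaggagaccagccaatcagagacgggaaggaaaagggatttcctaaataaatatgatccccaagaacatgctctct
Cxcl10: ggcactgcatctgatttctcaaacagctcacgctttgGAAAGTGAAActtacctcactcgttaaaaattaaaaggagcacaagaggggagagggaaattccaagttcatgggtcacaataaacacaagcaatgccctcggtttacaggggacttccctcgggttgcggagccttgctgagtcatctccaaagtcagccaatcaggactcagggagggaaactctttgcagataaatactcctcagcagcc
Slamf8: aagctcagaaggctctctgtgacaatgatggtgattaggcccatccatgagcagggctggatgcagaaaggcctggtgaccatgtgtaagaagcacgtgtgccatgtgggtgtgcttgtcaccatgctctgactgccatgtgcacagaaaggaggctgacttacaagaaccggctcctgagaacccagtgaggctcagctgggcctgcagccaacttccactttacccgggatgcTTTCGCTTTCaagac
The Cxcl10 window held 1 match, which began 213 bases before the start, and the Slamf8 window held 1, on the opposite strand, which began 15 bases before the start. The Cxcl9 window held no match to this motif, which says only that these letters are not in this window. Of 17 genes sought, 12 had a sequence, and only Cxcl10 and Slamf8 held a match. C3 and Ass1, also named below as higher in both libraries, held none. Of 32851 upstream windows of the same length, 978 (2.977%) held GAAANNGAAA, again on either strand. A second motif that was sought, TTCNNNGAA, was in no window of the 12 genes and in 7.02% of the 32851. A match is a description and not evidence of binding.

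Within each library the members were compared with the gated cells that had no Cxcl9 UMI. The rule itself made this contrast, so the values below describe the split and test nothing. Ratios are of UMIs summed over the cells of a set, scaled to the set's total, with 0.5 counts added, for genes with at least 20 UMIs in the sets together. In the control library 4.05% of 9058 genes were at least 2-fold higher in the members and 5.84% at least 2-fold lower. In the antibody library the shares were 3.82% and 4.21% of 9662 genes. Requiring the counting interval to lie off 0 as well left 1.68% and 1.69% in the control and 2.29% and 3.51% in the antibody library. Only 0.296% of 8798 genes (26) were 2-fold higher in both libraries, and 0.705% (62) 2-fold lower in both.

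Among the CXCR3 ligands, Cxcl11 stood highest over the Cxcl9 = 0 cells. It measured 157 CPM in members and 26.9 CPM in Cxcl9 = 0 cells of the control library, and 136 and 33.9 CPM in the antibody library, log2 ratios of 2.55 (2.02 to 3.07) and 1.98 (1.49 to 2.56). In the control members 22 of its 55 UMIs came from 1 cell. Cxcl10 measured 876 against 479 CPM and 768 against 317 CPM, log2 0.87 (0.69 to 1.05) and 1.28 (1.11 to 1.45). After thinning, 36.2% of control and 42.3% of antibody members had a Cxcl10 UMI, compared with 14.1% and 19.3% of the cells without Cxcl9. Of T cells thinned the same way, 10.4% (5 of 48) in the control and 14.1% (39 of 276) in the antibody library had one. Of thinned tumour cells, 5.48% and 27.7% did. The antibody cells without Cxcl9 lay between the T cell and tumour cell shares of their library. Whether tumour cells made Cxcl10 themselves was not tested. Transcripts of both other CXCR3 ligands thus stood higher in the members of each library. The mouse annotation used lists Cxcl11 as a polymorphic pseudogene, a gene not intact in all mice. Whether its transcript gave a protein here was not tested.

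Among the other chemokines Ccl5 in the antibody library was the only one 2-fold higher. Of 18 chemokines with enough UMIs, Cxcl9 left out and Cxcl10 and Cxcl11 included, 1 (Cxcl11) was 2-fold higher and 4 were 2-fold lower in the control members, and 3 (Cxcl11, Cxcl10 and Ccl5) and 5 in the antibody members, with median log2 ratios of -0.44 and -0.30. Pf4, platelet factor 4, measured 716 against 1726 CPM in the control and 338 against 1437 CPM in the antibody library (log2 -1.27 and -2.09). Ccl24, an eosinophil attractant, measured 17.2 against 46.8 CPM and 15 against 144 CPM (-1.34 and -3.25). Ccl2, the monocyte attractant, was level, at -0.03 and -0.04. Ccl8, a monocyte and T cell attractant, stood at -2.04 in the control members and at -0.50 in those of the antibody library. Ccl5, a T cell attractant, rested on 4 UMIs in the control members and pointed opposite ways, at -1.32 (-3.38 to -0.07) and 1.27 (0.98 to 1.58).

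Besides Cxcl11, the genes named by rule as higher in both libraries were C3, Ass1, Slamf8 and Gbp4. C3, the central complement component, measured 83.0 CPM in members and 25.2 CPM in Cxcl9 = 0 cells of the control library, and 164 and 41.1 CPM in the antibody library, log2 1.74 and 1.98. Ass1, the argininosuccinate synthase that rebuilds arginine from citrulline, measured 80.2 against 34.7 and 88.8 against 37.0 CPM (1.22 and 1.25). Slamf8, a myeloid receptor of the SLAM family, measured 68.7 against 34.4 and 153 against 46.3 CPM (1.02 and 1.71). Thinning to 2000 UMIs turned its control ratio to -0.05, and 7 of its 24 control member UMIs came from 1 cell. Gbp4, an interferon-induced GTPase, measured 74.4 against 37.6 and 237 against 116 CPM (1.01 and 1.03).

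Of the 10 genes named as lower in both libraries, 4 (F13a1, Cbr2, Gas6 and Pf4) belong to the list of resident-like macrophage genes. F13a1, coagulation factor XIII subunit A, measured 117 against 439 CPM in the control and 49.9 against 566 CPM in the antibody library, log2 -1.89 (-2.39 to -1.46) and -3.50 (-3.76 to -3.25). Cbr2, carbonyl reductase 2, measured 42.9 against 172 and 22.4 against 236 CPM (-1.96 and -3.40). Gas6, the bridging ligand of the TAM receptors, measured 34.4 against 107 and 24.8 against 156 CPM (-1.58 and -2.65). All 3 were in 5.17% to 8.62% of thinned control members and 3.41% to 6.82% of thinned antibody members. Thinned T cells held them in 0% of 48 control cells and at most 0.725% of 276 antibody cells. Hmox1, the haem-degrading oxygenase, stood at -1.19 and -1.40, the transcription factor Klf4 at -1.15 and -1.49, Hdac9 at -1.56 and -2.16, Etv1 at -1.55 and -1.21 and Gas7 at -1.29 and -1.67, so every gene named as lower had the same sign in both libraries, as the rule required.

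**Figure D3:**
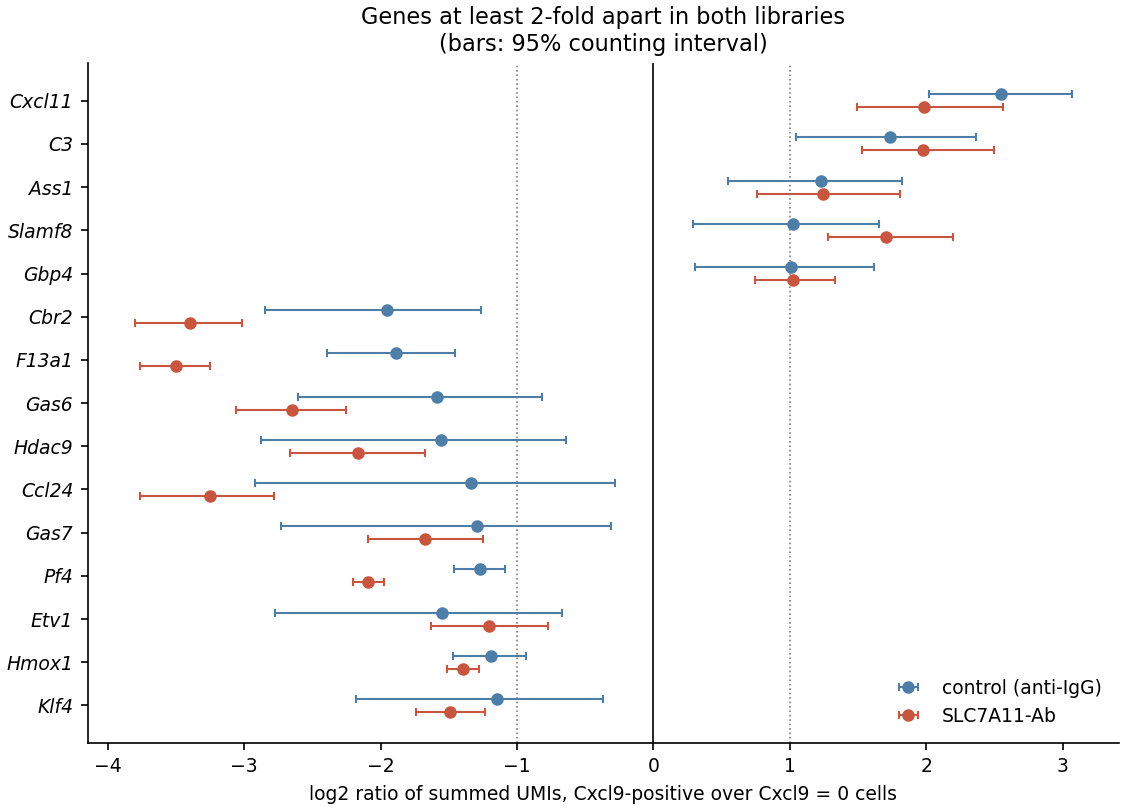
Log2 ratio of summed UMIs, Cxcl9-positive over Cxcl9 = 0 cells, for the 15 genes named as at least 2-fold apart in both libraries, with 95% counting intervals; dotted lines mark a 2-fold ratio. The 5 higher genes lie between 1.01 and 2.55, and F13a1 and Cbr2 lie farther below 0 in the antibody library than in the control.

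Taken as a list, resident-like macrophage genes stood lower in the members of both libraries. In the control 8 of 15 measured genes were 2-fold lower, none was 2-fold higher and all 15 lay below 0, with a median log2 ratio of -1.12 (-0.94 with genes at 0 UMIs set to their bound). In the antibody library 11 of 17 were 2-fold lower and none higher, with a median of -2.09. The median over all genes was 0.03 for the control library and -0.02 for the antibody library. Lyve1, the hyaluronan receptor of perivascular macrophages, had 0 UMIs in the control members against 116 in the Cxcl9 = 0 cells (log2 at most -2.26 with the 3-count floor) and measured 5.21 against 65.8 CPM in the antibody library (-3.63). Mrc1, the mannose receptor, measured 687 against 1324 and 473 against 1253 CPM (-0.94 and -1.41), and Folr2, folate receptor beta, 212 against 284 and 150 against 487 CPM (-0.42 and -1.70). Adgre1, which encodes F4/80 and is carried by most mouse macrophages, was an exception at -0.03 and 0.51, as was Timd4 in the antibody library at 0.92.

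Alternative activation genes showed the same sign. Their median was -0.54 in the control (3 of 12 2-fold lower, none higher) and -1.24 in the antibody library (8 of 14 lower, 1 higher). The gene 2-fold higher there was Pdcd1lg2, the PD-1 ligand PD-L2, at 84.2 against 20.6 CPM (log2 2.00). Arg1, arginase 1, measured 407 against 587 and 532 against 1354 CPM (-0.53 and -1.35). Retnla had 14 UMIs in the antibody members and 713 in the antibody Cxcl9 = 0 cells (-7.37), and in the latter 10.2% of thinned cells had a UMI of it, compared with 0.362% of thinned T cells and 0.067% of thinned tumour cells of the antibody library. Mgl2, a C-type lectin, went opposite ways, at 0.60 with control and -1.82 with antibody cells.

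MHC class II genes were higher in the members of both libraries. The median over 11 genes was 0.40 in the control, with all 11 above 0 and none 2-fold higher. It was 0.96 over 13 genes in the antibody library, with 4 genes 2-fold higher and 1 lower. H2-Ab1, the class II beta chain, measured 535 against 384 CPM in the control and 4356 against 2255 CPM in the antibody library (0.48 and 0.95), and was found in 39.7% against 26.2% and 92% against 77.1% of thinned cells. Among thinned T cells, which in mice should lack class II, 4.17% (2 of 48) and 15.2% (42 of 276) had an H2-Ab1 UMI. H2-Aa, its alpha partner, measured 1781 against 1445 and 9200 against 4699 CPM (0.30 and 0.97). Ciita, the class II transactivator, was sparse, with 4 UMIs in control members, and measured 62.5 against 31.9 CPM in the antibody library (0.95). Thinning raised the control median to 0.94. Whether the step at Cxcl9 differs between the libraries was not tested.

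Genes of the interferon gamma response lay above 0 nearly throughout. All 28 measured in the control were above 0 (median 0.46, 4 of them 2-fold higher), and 28 of 29 in the antibody library (median 0.63, 6 2-fold higher), where 52.9% and 47.8% of all genes tested lay above 0. This list contains Cxcl10, Cxcl11 and Slamf8, already given. Serpina3g, a serine protease inhibitor, measured 85.9 against 13.8 CPM and 312 against 61.7 CPM (2.64 and 2.33). Irf1, an interferon-induced transcription factor, measured 112 against 62.0 and 238 against 233 CPM (0.86 and 0.02). Guanylate-binding proteins had medians of 0.75 (1 of 8 2-fold higher) and 0.90 (5 of 10), led in the antibody library by Gbp2b at 541 against 197 CPM (1.45). Immunity-related GTPases had medians of 0.37 and 0.51. The Gbp genes, Tgtp1 and Tgtp2, and the H2-Q genes have close copies, so the split of reads between their members is uncertain. The receptors and signalling genes of the interferons were near all genes, with medians of 0.09 and 0.06.

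Genes stimulated by type I interferon lay mostly above 0 in the control members only. None of the 28 was 2-fold apart with its counting interval off 0 in either library. In the control members 25 of 28 lay above 0 (median 0.43), whereas in the antibody members 10 of 28 did (median -0.07). Isg15 measured 1202 against 734 CPM in the control and 550 against 657 CPM in the antibody library (0.71 and -0.26). Mx1, an antiviral GTPase, measured 152 against 84.7 and 51.5 against 49.3 CPM (0.85 and 0.05). MHC class I and peptide-loading genes had medians of 0.32 and 0.26 with none of 24 2-fold apart in either library.

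Of the other lists, cell cycle genes had medians of 0.25 and 0.45, with all 24 above 0 in the antibody library, and Mcm6, a replicative helicase subunit, at 1.23 there. Hypoxia and glycolysis genes pointed up in the control (0.16, 19 of 24 above 0) and down in the antibody library (-0.28, 22 of 25 below 0). Immediate early and dissociation stress genes were lower in members of both, with medians of -0.34 (20 of 24 below 0) and -0.63 (23 of 24), farther from 0 than the cell cycle and hypoxia lists. Medians were -0.00 and -0.07 for lysosomal proteases and cystatins, -0.20 and -0.14 for complement, and -0.18 and 0.36 for Fc gamma receptors. Inflammatory cytokines had medians of 0.13 and 0.23. Il12b, the p40 subunit of interleukin 12, had 35 UMIs in the antibody members and none in the antibody cells without Cxcl9 (log2 at least 1.80), but was found in 1.14% of thinned members and in 0 of 276 thinned T cells. Nos2, inducible nitric oxide synthase, measured 40.1 against 8.86 CPM in the control (2.20) and 93.7 against 71.9 CPM in the antibody library (0.37). Its control value rested on 14 UMIs in 8 of the 60 members, 5 of them from 1 cell.

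Mrc1 and H2-Ab1 were found together in a smaller share of the antibody members than of the antibody cells without Cxcl9. Most antibody members held H2-Ab1, so many would hold both without any link between the genes. Of 440 thinned antibody members 205 (46.6%) held both, 200 (45.5%) H2-Ab1 alone and 21 (4.77%) Mrc1 alone. Among 166 antibody cells without Cxcl9 the numbers were 93 (56.0%), 35 (21.1%) and 29 (17.5%). In the control, 13 of 58 members held both, 10 H2-Ab1 alone and 17 Mrc1 alone, and 108, 41 and 326 of 569 cells without Cxcl9 did so. Mrc1 itself was in 0 of 48 and 1 of 276 thinned T cells of the control and antibody libraries. Mrc1 without H2-Ab1 was thus the most frequent state of the control cells without Cxcl9 and rare in the antibody members, sets that differ in library as well as in Cxcl9. It was found in 29.3% of control members and 17.5% of antibody cells without Cxcl9. Arg1 and Nos2 were found together in 19 of the 440 thinned antibody members, Arg1 alone in 88 and Nos2 alone in 28. Of thinned antibody T cells, 1.45% had an Arg1 and 0.725% a Nos2 UMI.

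The antibody library held enough members to be divided by their Cxcl9 UMIs. From 0 through 1, 2 to 4, 5 to 14 and 15 or more UMIs (237, 64, 100, 141 and 163 cells), summed MHC class II stood at 24887, 29962, 35874, 42462 and 55960 CPM. Guanylate-binding proteins stood at 746, 876, 1185, 1384 and 1946 CPM. Both climbed at each step. Mrc1 went the other way, through 1253, 826, 622, 441 and 341 CPM, and the summed resident-like list through 6174, 3863, 2566, 2179 and 1917 CPM. Ccl8 followed neither course, at 10331, 6975, 5410, 5211 and 9752 CPM. Median depth also climbed, from 3458 through 4772, 5491 and 6397 to 7529 UMIs, and its part in these trends was not tested. In the control, with 32, 19 and 8 cells in the bins from 1 UMI to 14 and 1 cell above, MHC class II stood at 11719 CPM without Cxcl9 and at 11257, 19489 and 13699 CPM, with no steady course, and the resident-like list at 5853, 2991, 3262 and 2868 CPM.

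**Figure D4:**
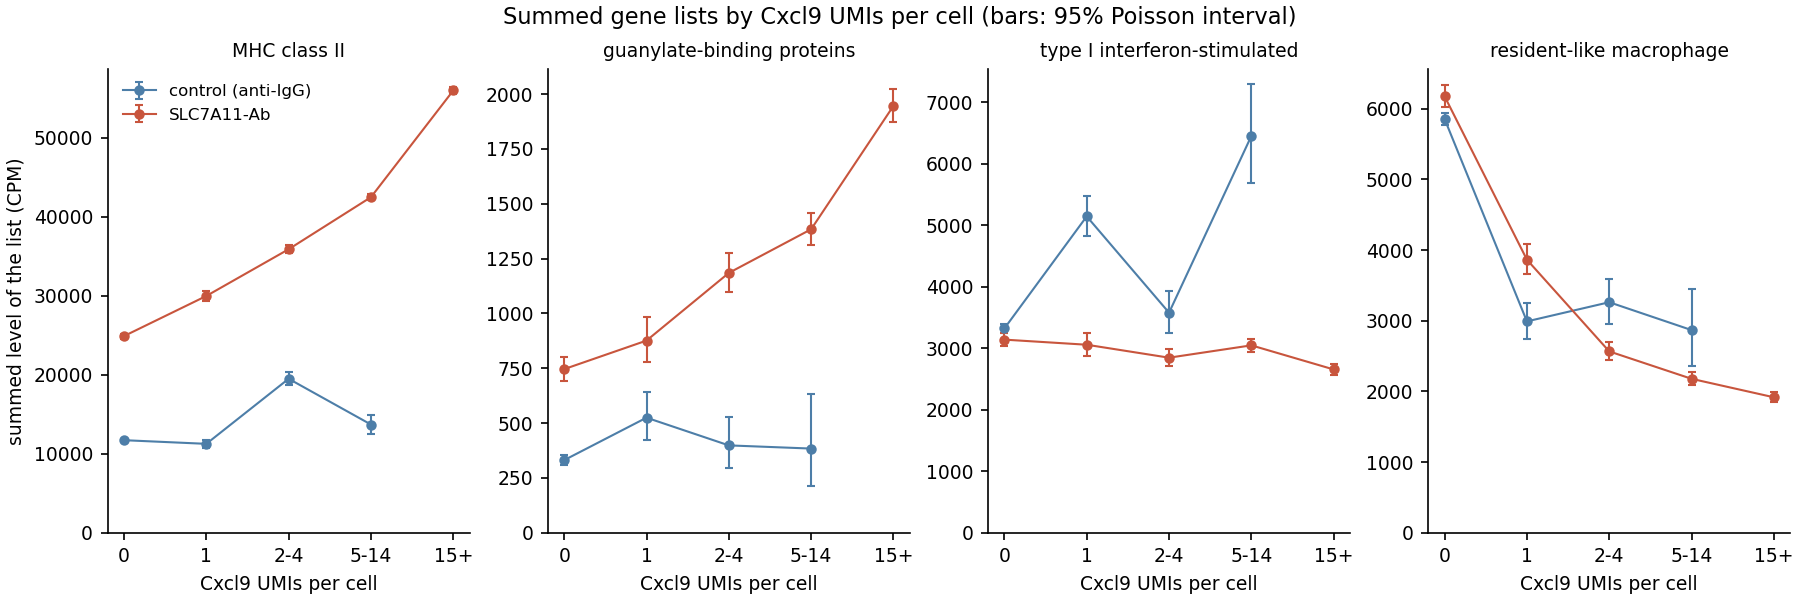
Summed level (CPM) of 4 gene lists against the Cxcl9 UMIs of the cells, by library, with 95% Poisson intervals; the single control cell with 15 or more is not drawn, and control bins from 2 UMIs hold 19 and 8 cells. In the antibody library MHC class II climbs from 24887 to 55960 CPM and the resident-like list falls from 6174 to 1917 CPM.

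Between the libraries, 11% of 9302 genes were at least 2-fold higher and 10.1% at least 2-fold lower in the antibody members than in the control members. With the interval off 0 as well the shares were 6.37% and 6.2%. In the Cxcl9 = 0 cells 8.72% and 8.83% of 9569 genes were 2-fold apart in the same directions, or 8.14% and 6.96% with the interval. In the members 39.7% of genes lay above 0 and in the Cxcl9 = 0 cells 43.1%, with medians over all genes of -0.19 and -0.12, against which the medians below should be read. Median-of-ratios scaling changed the split between higher and lower genes in the members from 1027 against 935 to 1306 against 544. After taking away the median ratio of the tumour, T cell and neutrophil gates, 6.7% of 9135 genes were 2-fold higher and 11.3% 2-fold lower.

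MHC class II stood highest of the lists in the antibody members. Of 13 genes 9 were 2-fold higher and 1 lower, with a median of 2.13 (1.46 with genes at 0 UMIs at their bound), compared with 1.15 over 11 genes in the Cxcl9 = 0 cells. H2-Ab1 measured 535 CPM in control and 4356 CPM in antibody members, a log2 ratio of 3.02 (2.82 to 3.24), compared with 2.55 in the Cxcl9 = 0 cells and a median of 4.22 over the other gates. H2-Aa measured 1781 and 9200 CPM (2.37), compared with 1.70 and 3.43. The difference was also present in the other gates: the list's median was 4.77 in the tumour gate, 2.17 in the T cell gate and 3.51 in the neutrophil gate, and with the other gates' ratio taken away it was -1.27 in the members. Free RNA in droplets was not separated from a cell's own transcripts here.

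The interferon gamma lists were also higher in the antibody members, though not in T cells throughout. Guanylate-binding proteins had a median of 1.73 in the members (7 of 10 2-fold higher), or 1.33 with genes at 0 UMIs at their bound. Their median was 1.15 over 8 genes in the Cxcl9 = 0 cells and 3.28 in the tumour gate, but -0.14 in the T cell gate (5 of 10 above 0). Gbp2b measured 103 CPM in control and 541 CPM in antibody members (2.37, with 1.88 in the Cxcl9 = 0 cells, 3.65 in the tumour gate and 0.63 in the T cell gate). The interferon gamma response list had a median of 0.98 (14 of 29 2-fold higher, none lower), with 0.77 in the Cxcl9 = 0 cells, 2.72 in the tumour gate and 0.18 in the T cell gate. Cd274, the gene of PD-L1, measured 97.3 and 302 CPM (1.61, with 1.79 in the Cxcl9 = 0 cells and 2.41 over the other gates). Cxcl10 and Cxcl11 were not higher in the antibody members, at -0.19 (-0.36 to -0.01) and -0.22 (-0.62 to 0.22). In the Cxcl9 = 0 cells they stood at -0.59 and 0.34. Over the other gates they stood at 2.96 and 2.97, although Cxcl10 was at -0.61 in the T cell gate. Genes stimulated by type I interferon were lower in the antibody members, with a median of -0.63, 11 of 28 2-fold lower and none higher. In the Cxcl9 = 0 cells their median was -0.08 with 1 of 28 2-fold lower, and in the tumour gate it was 1.02. The T cell gate also lay below 0, with a median of -0.90 and 21 of 25 genes below 0. Ifit3, an antiviral effector, measured 266 and 92.5 CPM in the members (-1.53, with -0.77 in the Cxcl9 = 0 cells, -1.02 in the T cell gate and 1.06 in the tumour gate).

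**Figure D5:**
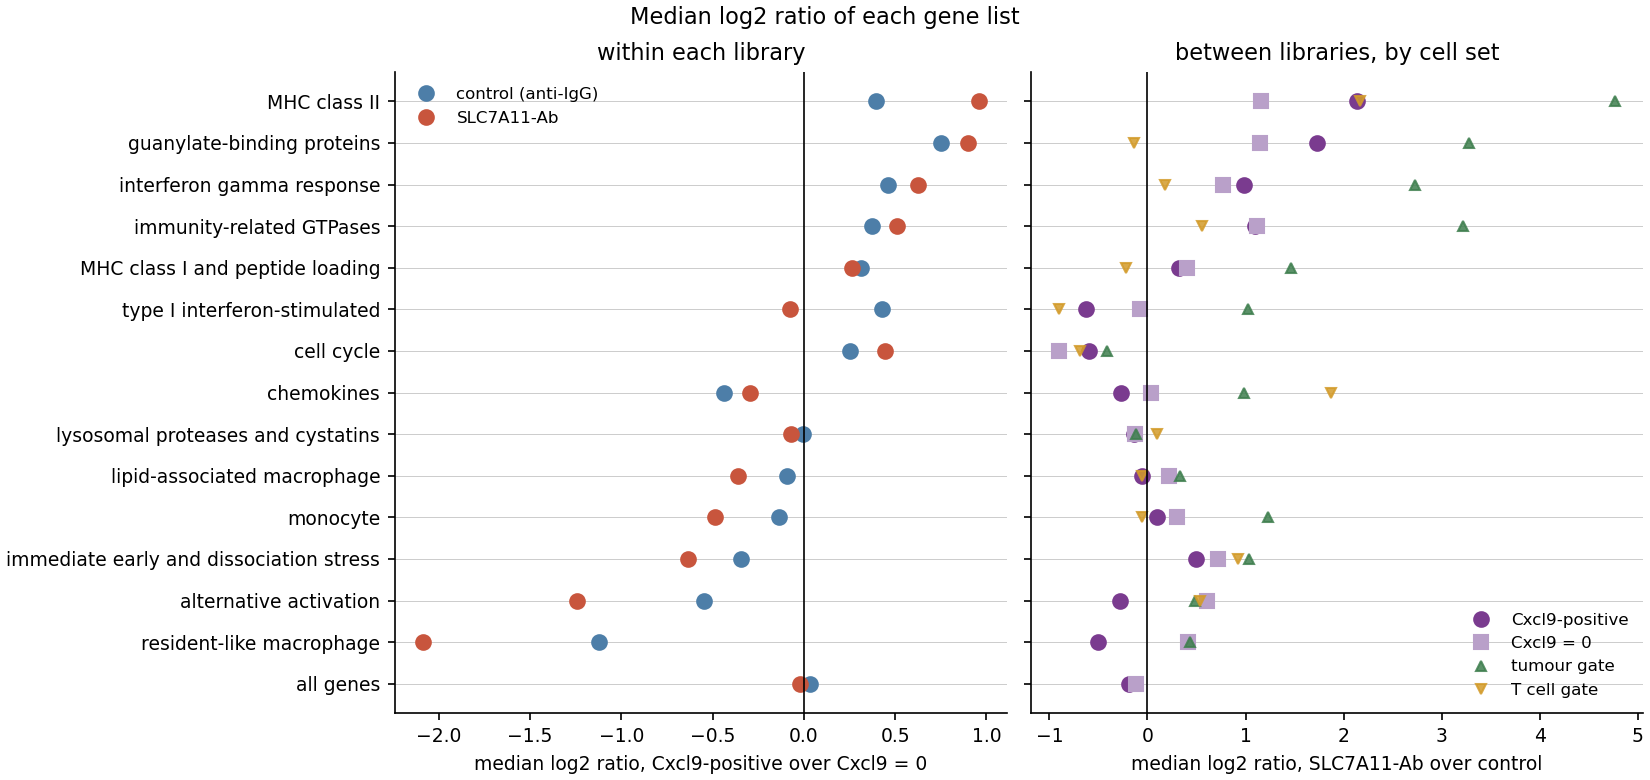
Median log2 ratio of each gene list, for Cxcl9-positive over Cxcl9 = 0 cells within each library (left) and for SLC7A11-Ab over control in 4 cell sets (right). On the left the resident-like list lies at -1.12 and -2.09; on the right MHC class II lies at 2.13 in the members and 4.77 in the tumour gate.

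Ccl8 was the named chemokine with the widest gap between the libraries. It measured 255 CPM in control and 7286 CPM in antibody members, a log2 ratio of 4.83 (4.54 to 5.15), and 1053 and 10331 CPM in the Cxcl9 = 0 cells (3.29), with a median of 3.74 over the other gates. Ccl5 measured 11.5 and 263 CPM in the members (4.35, 3.16 to 6.40), with 1.77 in the Cxcl9 = 0 cells. In the other gates it went opposite ways, at -0.40 in the tumour gate and at 3.75 in the T cell gate, where it reached 2302 CPM in the antibody library. Pdcd1lg2 measured 5.73 and 84.2 CPM (3.56, 2.01 to 6.93), with 2.81 and 0.34. Lpl, lipoprotein lipase, had no UMI in control members and 71.7 CPM in antibody members (log2 at least 3.06), with 2.01 and 1.06. Ly6c2, a monocyte surface gene, measured 2.86 and 52.1 CPM, from 1 UMI in the control (3.60, 1.69 to 9.50), with 0.81 in the Cxcl9 = 0 cells, 2.62 in the tumour gate and -0.85 in the T cell gate. Pdcd1lg2, Ccl5 and Ly6c2 were named only by a rule added after the data had been seen, which takes away the other gates' ratio. Lpl was named by that rule and by the first one. Ebpl, Emc6 and AY036118 had no UMI in control members and at least 2.97 (log2) more in the antibody members, with 3.25, 3.60 and 5.44 in the Cxcl9 = 0 cells and 2.74, 4.62 and 4.64 over the other gates. H2aj, a histone gene, stood at 5.23, with 4.95 in the Cxcl9 = 0 cells and 4.11 over the other gates. For Dlat, a subunit of the pyruvate dehydrogenase complex, the ratio was at least 1.89 from 0 and 104 UMIs, with 0.65 in the Cxcl9 = 0 cells and 1.78 over the other gates. Ly6i, a gene of the Ly6 family, had 0 and 117 UMIs (log2 at least 2.06) and too few in the other sets for a ratio.

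On the lower side, Fcrls, an Fc receptor-like gene of resident macrophages, measured 183 CPM in control and 12.9 CPM in antibody members (-3.83, with -2.51 in the Cxcl9 = 0 cells and -1.50 over the other gates). Gpr183, an oxysterol receptor, measured 226 and 42.3 CPM (-2.42, with -1.44 and -0.29), and Trf, transferrin, 490 and 109 CPM (-2.16, with -1.18 in the Cxcl9 = 0 cells and -0.66 over the other gates). Spp1, osteopontin, measured 3670 and 976 CPM (-1.91), with -2.14 in the Cxcl9 = 0 cells and -0.93 over the other gates. The resident-like list had a median of -0.51 in the members, 0.41 in the Cxcl9 = 0 cells and 0.44 in the tumour gate. Cell cycle genes had -0.59 and -0.90, with -0.42 in the tumour gate and -0.69 in the T cell gate. For lipid-associated macrophage genes the sign of the median depended on the scaling, at -0.06 as computed and 0.15 with median-of-ratios scaling.

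Nearly all Col1a1, Col1a2 and Col3a1 transcripts of the control members came from 1 cell. Col3a1 measured 604 CPM in control and 27.6 CPM in antibody members (-4.45), and Col1a1 389 and 27.3 CPM (-3.83). A control cell with 17042 UMIs, 2 of Cxcl9 and 139 of C1q held 494 UMIs of these 3 genes, and the next highest control member held 3. It held 204 of the 211 Col3a1, 132 of the 136 Col1a1, 158 of the 166 Col1a2, 209 of the 225 Sparc and 91 of the 134 Timp1 UMIs of the control members, and was not marked as a doublet. Without it the log2 ratios between the libraries were 0.30 for Col3a1, 1.02 for Col1a1, 0.63 for Col1a2 and 0.40 for Sparc, so none of these 4 was lower in the antibody members. Col14a1, another collagen gene, was spread over 35% of the control members and measured 109 and 25.1 CPM (-2.12, with -3.01 in the Cxcl9 = 0 cells and 1.58 in the tumour gate). A gene carried by few cells of a set of 60 can rest on 1 of them in the same way.

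Slc7a11, the gene of the antibody's target, was sparse in the members. It measured 28.6 CPM (10 UMIs) in control members, 26.9 CPM in control Cxcl9 = 0 cells, 40.4 CPM in antibody members and 25.7 CPM in antibody Cxcl9 = 0 cells. The log2 ratio between the libraries was 0.43 (-0.43 to 1.59) in the members and -0.05 in the Cxcl9 = 0 cells, with 0.34 over the other gates, so no difference was detectable at this depth. Slc3a2, the heavy chain that pairs with it, measured 112 and 499 CPM in the members (2.14), with 1.94 in the Cxcl9 = 0 cells and 1.83 over the other gates. The cystine, glutathione and ferroptosis list as a whole had a median of -0.25 between the libraries in the members, near the -0.19 of all genes and with -0.07 in the Cxcl9 = 0 cells and -0.12 in the tumour gate, with 2 of 23 genes 2-fold higher and 3 lower.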

How the data were processed

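The 2 single-cell libraries were analysed, each a table of raw UMI counts per gene and cell as the authors deposited it. Per the submitters' processing notes the tools were Cell Ranger 7.2.0 and Seurat with the mm10 build; filters applied before deposit are not given in the sources used here. Counts of all barcodes were used (28526 gene IDs occur in both tables), and no file column was left out. Groups followed the labels. The members and the gene lists were chosen with earlier results of these data known.

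Cells were gated as stated in the report. Comparison gates required a mitochondrial share under 20%. The tumour gate took at least 2 Hmga2 UMIs with Ptprc and C1q at 0. The T cell gate took at least 2 Cd3 UMIs, C1q at 0 and at most 1 Hmga2 UMI. The neutrophil gate took at least 5 UMIs of S100a8 and S100a9, at least 1 of Csf3r, C1q and Cd3 at 0 and at most 1 Hmga2 UMI. Barcodes were ranked by their Scrublet score in scanpy 1.11.5, and the highest 0.8% per 1000 barcodes were marked. The marked share was thus set by the barcode count, at 11.1% of control and 9.73% of antibody barcodes, which were kept.

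UMIs were summed per library and cell set and scaled to CPM. Log2 ratios used a prior count of 0.5 and genes with at least 20 UMIs. A gene at 0 UMIs in one set was bounded with 3 counts over that set. Shares have exact Clopper-Pearson intervals, levels exact Poisson intervals and ratios exact conditional binomial intervals, all at 95%. Thinning drew 2000 UMIs per cell without replacement (seed 7) and left out shallower cells: 58 of 60 and 440 of 468 members remained. Those counts hold for the shares of members with a UMI of a gene. After thinning 33 of 627 control and 368 of 606 antibody gated cells still held a Cxcl9 UMI. Thinned ratios can rest on that smaller set, so they are not a check of depth alone in the same members. With 1 library per group no test was run. The ratio code was checked on simulated counts.

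Genes named by rule had at least 100 UMIs in the sets compared, were in at least 10% of the cells of one set, and were up to 10 in each direction by size at a 2-fold ratio or more, leaving out sex-linked genes, immune receptor genes (immunoglobulin and T cell receptor), haemoglobin, mitochondrial and ribosomal genes and those of the gate. For the split by Cxcl9 the smaller of the 2 libraries' ratios ranked them. Other genes named are list members, chosen after their values were seen. Alternatives covered depth, scaling, count minimum, the Cxcl9 threshold, the mitochondrial limit, a C1q minimum in UMIs and doublets, and 3 more were added after seeing the data (a counting interval off 0, ratios minus those of the other gates, collagen-rich cells left out). Upstream sequences came from RefSeq (12 of 17 genes sought had one). Python 3.11.15 was used with scipy 1.17.1, numpy 2.4.6, matplotlib 3.10.9 and pandas 2.3.3.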

Additional observations from a re-analysis of the deposited data

Results flagged for a closer look

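In 13 cases the log2 ratio of a gene pointed one way in one set and the opposite way in the other, with both counting intervals off 0 and at least 1 of the 2 ratios 2-fold or more. With 1 library per group none of these differences was tested.

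Split by Cxcl9 within a library (Cxcl9-positive over Cxcl9 = 0), Ccl5 stood at -1.32 for control and 1.27 for antibody cells, with 4 UMIs in the control members, 2 of them in 1 cell. Mgl2 stood at 0.595 and -1.82, and 12 of its 66 control UMIs came from 1 cell. Col1a1 stood at 5.08 and -0.771, Col1a2 at 3.38 and -0.741 and Col3a1 at 3.96 and -0.988. Vcan, the proteoglycan versican, stood at 2.22 and -2.56, with 8 of its 9 control UMIs in 1 cell.

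Compared between the libraries, in the members and then in the Cxcl9 = 0 cells, Ccl6 stood at -1.03 and 0.78, with 201 of its 586 control member UMIs in 1 cell. F13a1 stood at -1.25 and 0.368, with 16 of 41 control UMIs in 1 cell. Col1a1 stood at -3.83 and 2.02, Col1a2 at -3.59 and 0.53 and Sparc at -3.3 and 0.469, which rest on the collagen-rich control cell described above. Ctsk, cathepsin K, stood at -1.88 and 2.96 with 4 of 6 control UMIs in 1 cell, and Serping1, the C1 inhibitor, at -1.28 and 3.06 with 9 of 10.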

How the results depend on the processing

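No paired analysis was possible because each group holds 1 library and no test was run. The log2 ratio of the share with Cxcl9 was 3.01, 3.53 with cells thinned to 2000 UMIs and 4.61 with Cxcl9 counted from 3 UMIs. In the control split 367 genes were 2-fold higher and 529 lower: thinning gave 731 and 837, Cxcl9 from 3 UMIs 1067 and 1031, a count minimum of 1 4892 and 1035, a minimum of 100 29 and 84, and a counting interval off 0 152 and 153. The mean over scaled cells gave 794 lower. In the antibody split (369 and 407) a minimum of 1 gave 1309 and 3264 and a minimum of 100 89 and 105. Thinning gave 182 higher, the interval 221 higher and the mean over scaled cells 855 lower. Between libraries in the members (1027 and 935) thinning gave 672 higher and the ratio minus the other gates 612 higher. A minimum of 100 gave 454 and 203, and the interval 593 and 577. Cxcl9 from 3 UMIs gave 1446 lower, median-of-ratios scaling 544 lower and a minimum of 1 5582 lower.

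Minus the other gates, the medians between libraries were -0.80 for the interferon gamma response, -1.27 for MHC class II, -0.64 for guanylate-binding proteins, -1.08 for immunity-related GTPases and -0.68 for alternative activation, with Slamf8 at -1.46 and Ciita at -2.90. The control split had an MHC class II median of 0.94 with thinning. Thinning turned the control split of Slamf8 to -0.047, Col3a1 to -1.23, Col1a1 to -1.71, Col1a2 to -1.28 and Sparc to -1.68, and between libraries F13a1 to 0.67, Col3a1 to 0.22, Col1a1 to 2.14, Col1a2 to 0.72 and Sparc to 1.20. Cxcl9 from 3 UMIs turned the control split of Col3a1 to -0.17, Col1a1 to -1.23, Col1a2 to -0.050 and Sparc to -0.20, and between libraries Col1a1 to 2.02 and Sparc to 0.58. Without the collagen-rich cell the control split was -0.78 for Col3a1, -0.84 for Col1a2 and -0.035 for Sparc, and between libraries 0.30, 1.02, 0.63 and 0.40 for Col3a1, Col1a1, Col1a2 and Sparc. For the collagen genes and Sparc each setting that turned the sign thinned that cell or left it out. With only 2 Cxcl9 UMIs, that cell can lose both on thinning and no longer count as a member. Why thinning turned these signs, and what turned those of the other genes, was not tested. The control members number 60 cells, which limits every ratio that uses them.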
